A study of Mus musculus with 10 samples.

Results

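H3K4me2 regions that Th2 cells and ILC2s had in common, and that cells labelled naive T lacked, numbered 233 of the 27854 regions found in 6 libraries of mouse lymphocytes (0.837%). They were chosen by peak calls: peaks of the naive T, Th2 and ILC2 lists were merged within 500 bp, and a region was kept when both Th2 lists and both ILC2 lists had a peak in it and neither naive T list did. The presence of H3K4me2 in Th2 cells and ILC2s and the lack of a called peak in naive T cells are therefore the choice itself and not findings. The choice did not directly use the heights of Th2 cells against ILC2s, the site or the position in the genome. Nor did it use the lists of spleen and thymus CD4+ cells. The lack of a naive T peak may still bear on all of these, which was not tested. Of the 307 regions with a peak in both Th2 lists and no naive T list, the 233 made up 75.9%, and of the 3222 such regions of ILC2s they made up 7.23%. Regions of Th2 cells alone numbered 49 and those of ILC2s alone 2748.

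The study measured H3K4me2 by chromatin immunoprecipitation and sequencing (ChIP-seq) in sorted lymphocytes. Naive T cells, Th2 cells and ILC2s came from mice of the genotype Gata3-YFP/YFP that had airway inflammation, and they were sorted by antibodies and YFP, a fluorescent protein that reports the Gata3 gene. Each of them had 2 libraries, 1 from bronchoalveolar lavage and 1 from the mediastinal lymph node, so the spread within a cell type holds the site as well as any difference between preparations. Spleen and thymus CD4+ cells had 1 library each. The protocol text gives this genotype and state for all groups, spleen and thymus included, so there is no uninflamed control, and no age, allergen or sort gate is stated. Whether the libraries of a cell type came from separate animals is not stated for single samples, although the series design speaks of biological replicates, and p-values measure only the spread between these libraries.

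Dimethylation of lysine 4 on histone H3 marks promoters and enhancers, both active ones and ones that are held ready for use. Th2 cells are the CD4+ T helper cells that respond to antigen with IL-4, IL-5 and IL-13. ILC2s are innate lymphocytes without an antigen receptor that release IL-5 and IL-13 when epithelial alarmins such as IL-33 reach them. Both cell types depend on the transcription factor GATA3, and both are known to gather in the inflamed airway.

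Most of the 233 regions lay away from gene starts, and 9 held a RefSeq transcription start site. The 250 bases upstream of 5 of those start sites are printed here, to show the promoters that lie inside shared regions. The peaks of a library need not cover them, as a region is longer than its peaks in some libraries. They were chosen after their values were seen. The sequences are from RefSeq for GRCm38.p6, whose coordinates are those of mm10. Each runs 5′ to 3′ on the strand of the gene and ends at the base before the start site, and capitals mark a motif match. The searched motifs were AGATAA of GATA factors, TGANTCA of AP-1, TGTGGT of Runx factors and TTCNNNGAA of STAT factors, on both strands.
Il6, chr5:30012864-30013113, plus strand, AP-1 match: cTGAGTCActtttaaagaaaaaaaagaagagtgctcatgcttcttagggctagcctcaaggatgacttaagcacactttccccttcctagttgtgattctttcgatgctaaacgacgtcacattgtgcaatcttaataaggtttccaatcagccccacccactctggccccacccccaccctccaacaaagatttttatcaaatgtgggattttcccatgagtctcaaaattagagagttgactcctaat
Nmur1, chr1:86389362-86389611, minus strand, no match: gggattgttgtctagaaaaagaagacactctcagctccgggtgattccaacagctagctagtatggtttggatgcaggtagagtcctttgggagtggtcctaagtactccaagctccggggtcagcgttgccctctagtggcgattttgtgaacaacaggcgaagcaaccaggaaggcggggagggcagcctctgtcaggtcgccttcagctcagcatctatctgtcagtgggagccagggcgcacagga
St6gal1, chr16:23290220-23290469, plus strand, AP-1 match: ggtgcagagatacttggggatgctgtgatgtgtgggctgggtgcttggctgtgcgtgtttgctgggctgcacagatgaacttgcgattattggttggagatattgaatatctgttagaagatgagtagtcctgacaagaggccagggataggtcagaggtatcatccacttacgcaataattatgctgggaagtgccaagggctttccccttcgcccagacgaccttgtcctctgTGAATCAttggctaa
Ccr1, chr9:123968693-123968942, minus strand, Runx match on the other strand: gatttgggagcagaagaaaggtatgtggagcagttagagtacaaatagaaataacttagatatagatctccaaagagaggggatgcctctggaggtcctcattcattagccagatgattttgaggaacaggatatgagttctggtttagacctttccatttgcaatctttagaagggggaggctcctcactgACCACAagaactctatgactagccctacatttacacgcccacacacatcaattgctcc
Ifitm2, chr7:140955962-140956211, minus strand, no match: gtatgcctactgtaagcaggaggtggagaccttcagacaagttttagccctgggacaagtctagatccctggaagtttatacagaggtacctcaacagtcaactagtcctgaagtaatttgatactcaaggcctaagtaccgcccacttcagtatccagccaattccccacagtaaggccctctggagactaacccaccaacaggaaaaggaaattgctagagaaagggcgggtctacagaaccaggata
The AP-1 match of Il6 began 249 bases before the start site and that of St6gal1 15 bases before it, and the Runx match of Ccr1 began 58 bases before it. Over the 10 promoter windows at the 9 regions, 2 held the AP-1 letters, 1 the Runx letters and 0 the GATA or STAT letters. Over all 32817 promoter windows of the same length, 6.75% held AP-1, 14.0% Runx, 9.99% GATA and 7.01% STAT letters. A match describes letters and not binding, and 10 windows are too few to set a share against these.

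A microRNA gene also lay in 1 shared region. The hairpin of Mir146b, a microRNA known to dampen signalling to NF-kB, was inside the region at chr19:46342771-46344823, which was nearest to Cuedc2. Its mature 5′ arm is shown with the seed, bases 2 to 8, in capitals.
mmu-miR-146b-5p: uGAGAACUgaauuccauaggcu
That region had 42.4 normalized tags in lavage Th2 cells and 84.2 in those of the lymph node, while ILC2s had 141.9 and 153.7, lavage first as in all later pairs of values. A normalized tag is a sequenced tag after the authors scaled each library to 10000000 tags. Both ILC2 libraries were above both Th2 libraries, and the difference did not pass the test (adjusted p = 0.156, limma).

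The libraries differed in depth and enrichment. Th2 cells had 16041895 and 11870820 tags in all with 28.7% and 29.3% of tags in peaks, the authors' estimate of immunoprecipitation efficiency, against 24945548 and 22830388 tags and 43.2% and 44.99% in ILC2s. A peak of 40 normalized tags, about the lowest the peak finder kept, stood for 64 and 47 sequenced tags in Th2 cells, with 95% Poisson intervals of 30.7 to 50.9 and 29.1 to 52.7 normalized tags, and for 100 and 91 in ILC2s. All of these intervals cover counting error only. The remaining libraries had 19036573 to 24614614 tags. T cell markers in the gene table, 6 of 7, all had peaks in both Th2 libraries, with 6954.9 and 7051.8 summed tags. In ILC2s 4 of the 6 had one, with 1150.5 and 1304.9 summed tags and with no called peak at Cd3e and Cd4. Kit and Arg1 had peaks in ILC2s and none in Th2 cells, and all 8 ILC2 markers had peaks in both ILC2 libraries. Of the markers of other cells, B cell genes had peaks at 1 of 5 in both Th2 libraries (513 and 498.7 summed tags) and at 1 and 2 of 5 in ILC2s (67.3 and 696.9). Macrophage and neutrophil genes had them at 1 of 5 in Th2 cells (96.6 and 84.2) and at 1 and 2 in ILC2s (186 and 191.4), and eosinophil and mast cell genes at 1 of 5 in Th2 cells (292.4 and 447.3) and at 2 in ILC2s (579.6 and 824.7). Natural killer cell genes had none in Th2 cells and 1 of 4 in ILC2s (175.2 and 130.1), and airway epithelial genes 3 and 2 of 5 in Th2 cells (215.7 and 117.1) and 3 in ILC2s (459.4 and 439.4). Within these lists Ms4a1, Lyz2, Csf1r, Epx, Prg2, Ncr1 and Scgb1a1 had no called peak in any library. The part of such cells in the differences given below was not tested.

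The lavage library labelled naive T stood apart from the other one. Ccr7, Lef1 and Tcf7, genes of resting T cells, summed to 3106.6 tags in it, against 13169 in the lymph node library of that label, 9350.2 in spleen and 6927.8 in thymus CD4+ cells. It also had a peak at Il4, which the lymph node, spleen and thymus libraries lacked. Since it decides what counts as absent from naive T cells, the count of shared regions was also taken without each naive T list: it was 757 without the lavage list and 345 without the lymph node list.

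Near the threshold the set is open on both sides. In 80 of the 233 regions at least 1 library had under 45 tags, in 48 of them the Th2 library of the lavage and in 46 that of the lymph node, against 7 and 8 for the ILC2 libraries. Just inside lay a Specc1 region (chr11:62015768-62017146) with 38 and 38.8 tags in Th2 cells, against 40.1 and 51.2 in ILC2s. Just outside lay an Snx29 region (chr16:11658511-11660890) with 39.3 and 42.1 tags in Th2 cells, against 118.7 and 110.8 in ILC2s, with a naive T peak of 38.9 tags in the lavage. Another 625 regions had peaks in all 4 effector libraries and in 1 naive T list, in 515 of them that of the lavage, and 266 had a peak in 3 of the 4 effector libraries and in no naive T list, 138 of them lacking the lavage Th2 peak. A region outside the set can thus have calls in all 4 effector libraries, and a library without a call is not shown to lack signal.

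The shared regions were distal. Of the 227 on chromosomes with start sites in the table, 9 held a start site (3.96%, 95% Clopper-Pearson interval 1.83% to 7.39%), against 36.3% of all merged regions, 61.2% of the 12527 regions called in all 4 effector libraries, 10.1% of those of ILC2s alone and 4.26% of those of Th2 cells alone. The median distance to the nearest start site was 24.5 kb, against 8.27 kb over all regions, 22.0 kb for ILC2s alone and 20.3 kb for Th2 cells alone. Gene bodies held 133 regions (57.1%, against 73.6% of all and 66.0% of those of ILC2s alone), and 126 of these did not reach a start site. Exons, introns and UTRs were not told apart, as the gene table used here has none. For 29 regions (12.4%) no protein-coding gene lay within 100 kb, against 4.44% of all regions and 7.64% of those of ILC2s alone. Their length ran from 1086 to 21708 bp with a median of 2682 bp, against 1800 bp for ILC2s alone and 1575 bp for Th2 cells alone. The shared regions required 4 calls each and the others 2, so lengths were not compared by a test.

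**Figure D1:**
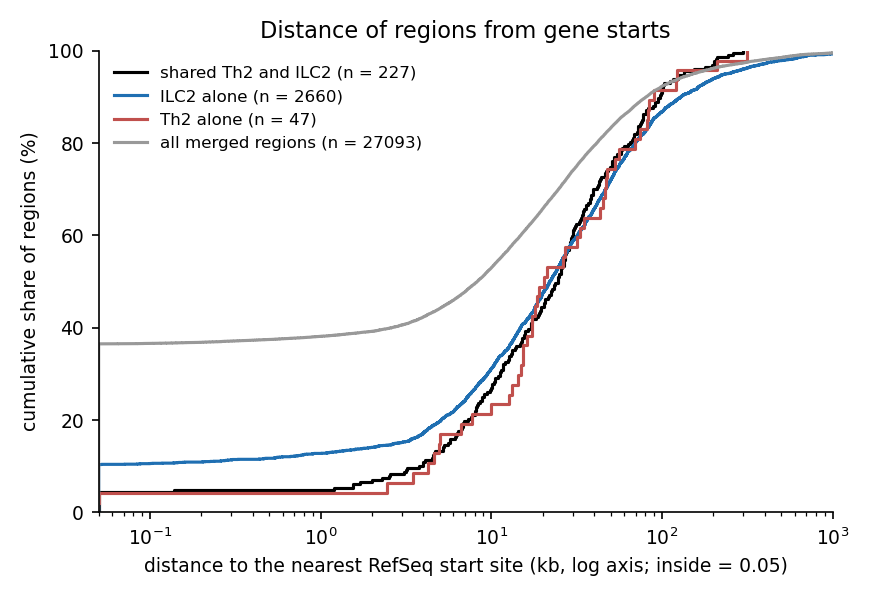
Cumulative share of regions (percent) against distance to the nearest RefSeq start site (kb, log axis, regions that hold a start site drawn at the left edge) for shared regions, regions of ILC2s alone, regions of Th2 cells alone and all merged regions. The 3 effector sets begin at 3.96%, 10.1% and 4.26% and run close together beyond 10 kb, while all merged regions begin at 36.3%.

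The nearest naive T peak was 11829 bp away at the median, with a range of 680 to 349154 bp, and for 52 regions it was within 5000 bp. The 233 regions spread over 20 chromosomes and had 185 nearest genes. Within 100 kb of each other, 52 of them formed 21 clusters, 7 of which held 3 or more. Nfkb1, Epas1, Itpr1 and Sik3 were each the nearest gene of 3 regions.

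Regions around Gata3, Epas1 and Il6 are described next; the stretch at Gata3 was chosen after its values were seen. Gata3 encodes the transcription factor on which both cell types depend, and 6 shared regions, in groups of 2, 1 and 3 by the 100 kb distance, lay beyond its end in the direction of transcription, between chr2:8869426 and chr2:9379797, with midpoints 501 to 1008 kb from the start site. In this stretch the table had noncoding genes and pseudogenes and no protein-coding gene other than Gata3. The tallest in ILC2s, at chr2:9113246-9120895, had 135.3 and 144.1 tags in Th2 cells, against 405.3 and 442.4 in ILC2s and was higher in ILC2s (log2 difference 1.15, SE 0.12, adjusted p = 0.00945, limma). The one at chr2:9374571-9379797, the closest to Gata3, had 187.6 and 289.8 tags in Th2 cells against 68.5 and 131.8 in ILC2s and was higher in Th2 cells (log2 difference -1.75, SE 0.37, adjusted p = 0.0439, limma). The other 4 did not pass the test. Opposite calls thus stood within the same stretch, with a region between them at chr2:9366950-9370830 of 64.2 and 128 tags in Th2 cells, against 177.6 and 250.5 in ILC2s. Being nearest says nothing of which gene a region acts on.

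Epas1 encodes the hypoxia-inducible factor HIF-2 alpha, and 5 shared regions spanned 51.8 kb that began 1.77 kb beyond its end. By the nearest-gene rule, those at chr17:86875978 and chr17:86884540 belong to Tmem247 and the others to Epas1. The tallest of the 5, at chr17:86875978-86881594, had 271.2 and 353.8 tags in Th2 cells, against 335.5 and 371 in ILC2s (log2 difference -0.26, SE 0.16, adjusted p = 0.326, limma). It also had a thymus CD4+ peak of 112.9 tags. After centring both Th2 libraries were above both ILC2 libraries there, and the difference did not pass the test. Its neighbour at chr17:86870952-86874065 had 39.9 and 128.9 tags in Th2 cells, against 99.4 and 198.9 in ILC2s. In all 5 regions the lymph node libraries were above the lavage libraries of the same cell type, and none of the 5 passed the test for the site or for the cell type.

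Il6 encodes a cytokine made by many cell types, ILC2s among them. A cluster of 4 shared regions over 134 kb held the gene at one end, with midpoints at -126, -118, -75.1 and 2.68 kb from the start site, negative being upstream. By the nearest-gene rule only the last 2 belong to Il6, while that at -126 kb is nearest to Dnajb6 and that at -118 kb has no gene within 100 kb. The region over the promoter printed above, at chr5:30011200-30020392, had 143.4 and 143.2 tags in Th2 cells, against 665 and 662.3 in ILC2s, 3.39-fold higher after each library was centred on its median (log2 difference 1.76, SE 0.12, adjusted p = 0.00589, limma). The region at -75.1 kb (chr5:29934818-29941111) had 47.4 and 59.8 tags in Th2 cells, against 388.8 and 598.3 in ILC2s, 6.63-fold higher (log2 difference 2.73, SE 0.24, adjusted p = 0.0080, limma). The 2 outer ones had 69.8 and 65.7 against 172.4 and 192.3 tags, and 137.1 and 75 against 315.5 and 396.8, and the first of them passed the test (adjusted p = 0.015, limma) while the second did not (adjusted p = 0.0604). All 4 were lower in both Th2 libraries than in both ILC2 libraries. Per kilobase of peak, the promoter region no longer passed (log2 difference 0.31, adjusted p = 0.0571, limma), and its peaks covered 2792 and 2968 bp in Th2 cells and 8578 and 9116 bp in ILC2s.

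**Figure D2:**
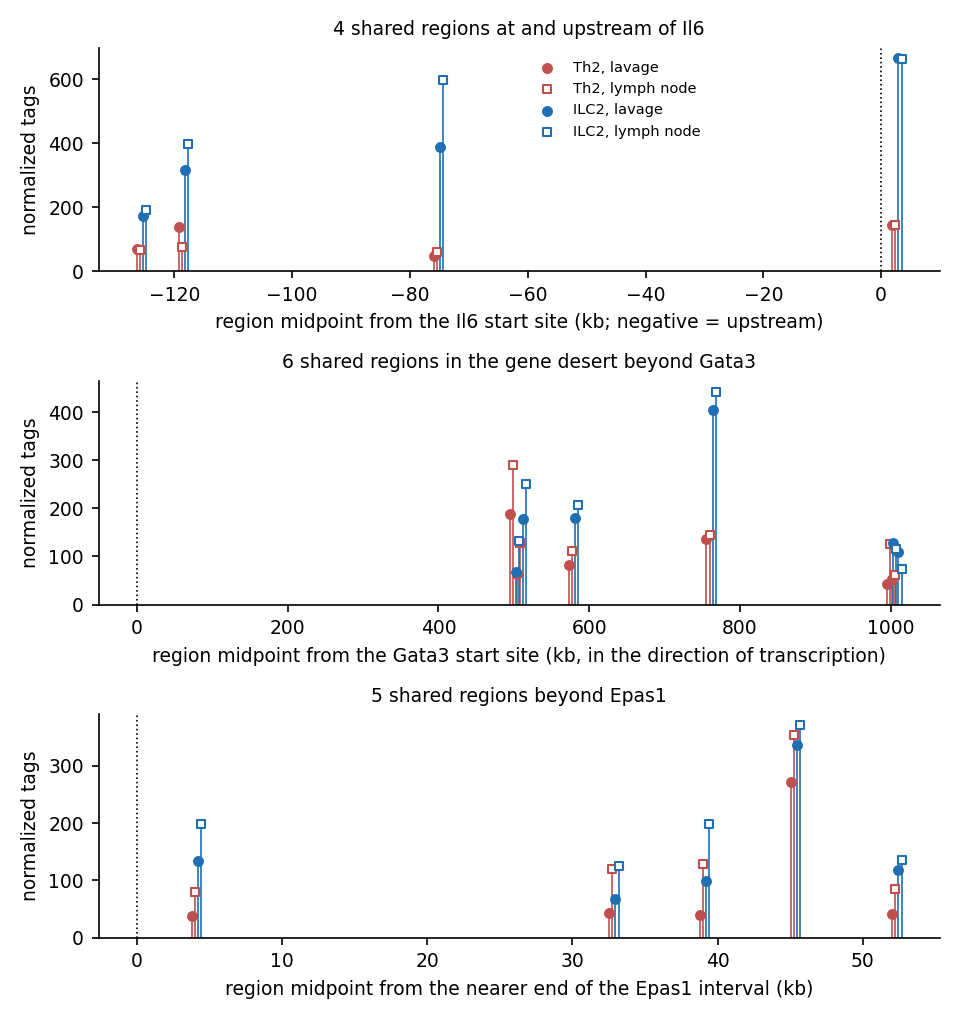
Normalized tags of each shared region in the 4 effector libraries (stems, filled circles for lavage and open squares for lymph node, red for Th2 cells and blue for ILC2s) against the midpoint's distance (kb) from the Il6 start site, the Gata3 start site and the end of Epas1. The ILC2 stems are the tallest at all 4 regions of the Il6 cluster, while at Gata3 the region nearest to the gene is tallest in Th2 cells, at 187.6 and 289.8 tags.

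Type 2 genes from lists of cytokines, receptors, transcription factors, migration genes, inhibitory receptors and resting T cell genes were then counted. Of 103 listed genes, 92 were the nearest gene of some region, and 12 that of a shared one, with 19 regions in all. These were 4.05% of the 469 regions nearest to listed genes, against 0.837% of all regions. The lists were drawn up with earlier results of these data known, so the larger share is not independent evidence. By list, the shared ones were 4 of 40 regions at cytokines and effectors, 2 of 44 at receptors, 12 of 150 at transcription factors, 1 of 76 at migration genes, 0 of 44 at inhibitory and activation receptors and 0 of 115 at resting T cell genes. A naive T peak bars a region from the set, and resting T cell genes carry such peaks. Il4, Il5 and Il13 were the nearest gene of no shared region, although a Rad50 region within 50 kb of Il5 (chr11:53691628-53695099) had 39.9 and 102.8 tags in Th2 cells, against 201.2 and 199.3 in ILC2s.

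Among cytokines, Il6 and Ccl1 had shared regions. Ccl1 encodes a chemokine that binds CCR8. Its region at chr11:82200546-82206409, 20734 bp from the gene, had 119.7 and 145.7 tags in Th2 cells, against 281.8 and 265 in ILC2s, and that at chr11:82191115-82193127 had 63 and 52.2 against 106.6 and 100.3. Both were higher in both ILC2 libraries, and neither passed the test (adjusted p = 0.0641 and 0.159, limma).

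Receptors of the IL-1 family gave 1 region each for Il1rl1 and Il1r1, both on chromosome 1. Il1rl1 encodes the IL-33 receptor ST2, and the region in it (chr1:40412553-40421176) had 177.7 and 119.6 tags in Th2 cells, against 454.2 and 457.3 in ILC2s (log2 difference 1.19, SE 0.23, adjusted p = 0.035, limma). Per kilobase of peak the sign of this difference turned to -0.10 on the log2 scale (adjusted p = 0.532, limma), with 3623 and 2595 bp covered in Th2 cells and 8318 and 8619 bp in ILC2s. Il1r1 encodes the receptor of IL-1, and its region (chr1:40268572-40272449) had 71.1 and 173.5 tags in Th2 cells, against 48.9 and 59.1 in ILC2s. There both Th2 libraries were above both ILC2 libraries, with a difference that did not pass the test (adjusted p = 0.0875, limma).

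Transcription factors held most of the listed regions. Irf4, a factor needed for Th2 differentiation, had a region 15528 bp away (chr13:30729347-30733705) with 61.7 and 74.1 tags in Th2 cells, against 233.7 and 273.3 in ILC2s (log2 difference 1.45, SE 0.15, adjusted p = 0.00939, limma). Rbpj, the DNA-binding partner of Notch, had 51.7 and 40.4 against 177.2 and 187 tags at chr5:53622950-53626639 (log2 difference 1.54, SE 0.17, adjusted p = 0.0109, limma). Per kilobase of peak neither was called, with a log2 difference of 0.01 for Irf4 and of -0.13, the opposite sign, for Rbpj. Pparg, a nuclear receptor of lipids expressed in both cell types, had 2 regions inside the gene. The first (chr6:115428444-115435198) had 147.7 and 230 tags in Th2 cells, against 323.5 and 443.3 in ILC2s and was not called (adjusted p = 0.198, limma). The second (chr6:115437066-115444692) had 351 and 310 tags in Th2 cells, against 208.5 and 279.5 in ILC2s and was higher in Th2 cells (log2 difference -0.90, SE 0.18, adjusted p = 0.0386, limma). That call was lost per kilobase of peak, without centring, with quantile normalization and by the tallest peak (adjusted p 0.052 to 0.111).

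The other factors had no called region. Nfkb1, which encodes a subunit of NF-kB, had a region inside the gene with 172 and 223.2 tags in Th2 cells, against 282.6 and 315.8 in ILC2s (adjusted p = 0.54, limma) and 2 more at 18567 and 38772 bp from it. In the farther one the ILC2 libraries stood apart from each other, at 47.3 tags for lavage and 174.3 for lymph node. Batf, an AP-1 family factor, showed a similar split the other way, with 66.7 and 53.1 tags in Th2 cells, against 356.8 and 128.3 in ILC2s. Maf, a factor that drives Il4, had 104.1 and 159.2 against 113.8 and 140.6 tags, which overlapped as tags, while after centring both Th2 libraries were above both ILC2 libraries (log2 difference -0.48, adjusted p = 0.233, limma). Itgav, the integrin alpha V subunit and the only migration gene with a shared region, had 51.7 and 60.7 against 88.6 and 73.6 tags (adjusted p = 0.774, limma).

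ILC2s had the higher mark at more of the shared regions than Th2 cells did. Heights were compared with limma on log2 normalized tags, centred on the median of each library, over the 12527 regions called in all 4 libraries, at a Benjamini-Hochberg adjusted p of 0.05. Of the 233 regions 61 were higher in ILC2s (26.2%, 95% interval 20.7% to 32.3%), against 7.93% of all tested regions. Higher in Th2 cells were 15 (6.44%, 3.65% to 10.4%), against 6.42% of all tested regions, a share at the background. The other 157 were not called. The tested regions were not chosen to lack a naive T peak, and 93.6% of them had a spleen CD4+ peak. The part of that choice in these shares was not tested. After centring, both ILC2 libraries were above both Th2 libraries in 122 regions (52.4%, against 30.3% of tested regions), and both Th2 libraries were above both ILC2 libraries in 45 (19.3%, against 34.2%). The median log2 difference was 0.37 over the shared regions and -0.02 over all tested regions, and between libraries of the same site it was 0.40 for lavage and 0.41 for lymph node.

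**Figure D3:**
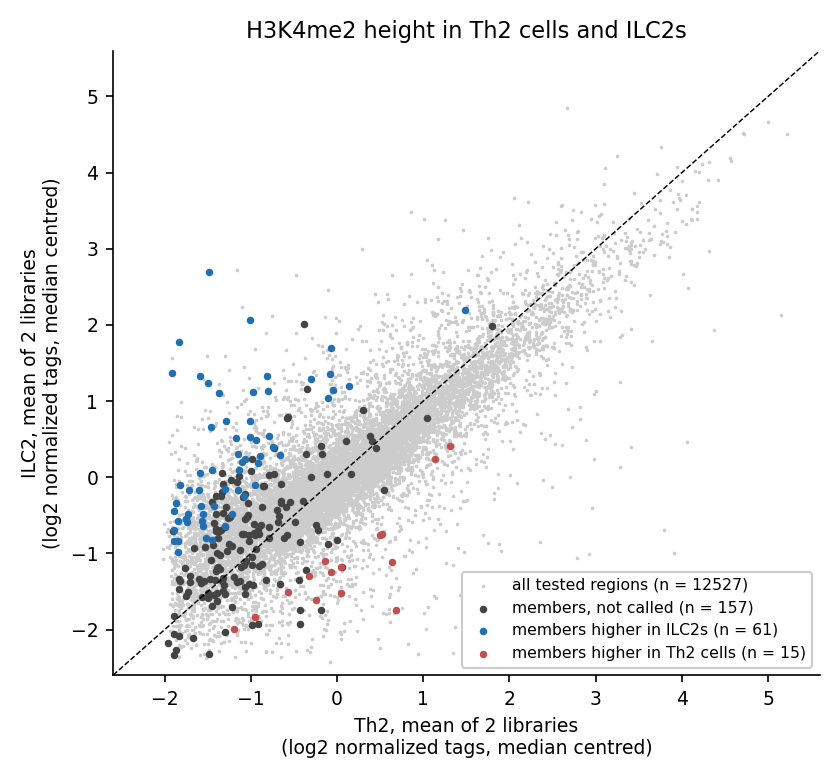
Mean log2 normalized tags of the 2 ILC2 libraries against those of the 2 Th2 libraries, each library centred on its median, for all 12527 tested regions (grey) and the 233 shared ones (61 higher in ILC2s in blue, 15 higher in Th2 cells in red, 157 not called in black), with a dashed line of equal height. The shared regions gather at the low end of the Th2 axis and spread above the line, up to the Notch2 region at a log2 difference of 4.17.

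The shared regions were low in Th2 cells. Their median height was 67.3 and 71.6 tags in Th2 cells, against 137.1 and 128.3 in ILC2s. Over all tested regions it was 148.4 and 151.6 for Th2 cells, and 201.2 and 208.9 for ILC2s. In sorted populations, fewer cells with the mark and less of it per cell cannot be told apart. Their peaks were also shorter in Th2 cells: at the median they covered 1527 and 1565 bp in Th2 cells and 2307 and 2239 bp in ILC2s, with 43.5 and 44.8 tags per kilobase against 54.6 and 56.1. Per kilobase of peak the median log2 difference was 0.02, with 38 regions higher in ILC2s and 13 in Th2 cells. Of these, 29 and 7 were also called on summed tags. Over all 12527 tested regions, 487 were higher in ILC2s and 681 in Th2 cells per kilobase. The smaller depth and efficiency of the Th2 libraries moved with this comparison, and their part in it was not tested. Without centring, 117 of the 233 regions were higher in ILC2s and 6 in Th2 cells, against 4665 and 349 of 12527 tested regions. The ILC2 share of the calls at the shared regions went from 80.3% to 95.1%. The median of all tested regions moved to 0.43 on the log2 scale. With 1 ILC2 library left out, whichever it was, the median log2 difference over the shared regions was 0.42. In those fits the spread came from the pair of the other cell type alone, and the lone library is assumed to vary like it. Calls changed with the pair that set the spread and are not given. Without the lavage Th2 library the median log2 difference over the shared regions was 0.42, and without that of the lymph node 0.39.

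The heights were closer between the ILC2 libraries than between the Th2 libraries. Across the 233 regions, which share library and depth within each pair, Spearman's rho was 0.85 between ILC2 libraries, 0.45 between Th2 libraries and 0.19 to 0.29 between cell types. The SD of the log2 difference came to 0.46 within ILC2s and 0.71 within Th2 cells, against 0.26 and 0.41 over all tested regions. The spread between libraries was thus larger in Th2 cells, where the regions had fewer tags.

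The widest gap was at Notch2, which encodes a Notch receptor. Its region (chr3:98043283-98064991), at 21708 bp the longest of the set and inside the gene, had 39.3 and 73.3 tags in Th2 cells, against 1251.5 and 1402.5 in ILC2s, an 18.1-fold difference (log2 difference 4.17, SE 0.31, adjusted p = 0.00655, limma). In Th2 cells a single peak of 1000 and 1532 bp lay within a domain that covered 21321 and 21100 bp in ILC2s, and per kilobase the log2 difference was 0.25 (adjusted p = 0.169, limma).

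Further regions with the smallest p in this direction are given next. Dgki, a diacylglycerol kinase, had 44.9 and 39.6 tags in Th2 cells, against 586.9 and 844.9 in ILC2s, a 12.2-fold difference (log2 difference 3.61, SE 0.20, adjusted p = 0.00551, limma), and its nearest naive T peak was the farthest of all, at 349154 bp. A region 7410 bp from Gm32886 had 42.4 and 37.1 against 514.7 and 543.1 tags (9.75-fold, adjusted p = 0.00502, limma), and one in Stxbp4, a syntaxin-binding protein, had 44.3 and 56.4 against 485.5 and 550.1 (7.56-fold, adjusted p = 0.00551). These 3 were also called per kilobase of peak (adjusted p 0.00434 to 0.00703). Furin, a protease that cleaves proproteins and is induced in activated T cells, had a region 10873 bp away with 59.8 and 56.4 against 456.2 and 430.1 tags (5.58-fold, adjusted p = 0.00539, limma). P4ha3, a subunit of a collagen prolyl hydroxylase, had 68.6 and 85.1 against 414.5 and 479.6 (4.27-fold, adjusted p = 0.00667, limma). Neither Furin (0.23) nor P4ha3 (0.10) was called on the log2 difference per kilobase (adjusted p = 0.122 and 0.604, limma). At Notch2, Dgki, Gm32886, Stxbp4, Furin and the -75.1 kb region of Il6, log2 differences were 2.41 to 4.23 without the lavage ILC2 library. Without that of the lymph node they were 2.44 to 4.12. In these fits the lone ILC2 library is assumed to vary like the Th2 pair.

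A region at chr12:25247750-25252766, with no protein-coding gene within 100 kb, had 66.1 and 57.3 against 310.7 and 378.9 tags (4.08-fold, adjusted p = 0.0070, limma). Ffar2, a receptor of short-chain fatty acids, had a region 7974 bp away with 163.3 and 166.8 tags in Th2 cells, against 473.8 and 470.9 in ILC2s (2.09-fold, adjusted p = 0.0107, limma). Among the called regions named here it had the largest log2 difference per kilobase, 0.92 (adjusted p = 0.000758, limma), with peaks that covered 4741 and 4675 bp in Th2 cells and 6029 and 5737 bp in ILC2s. Zcchc10 had the tallest shared region by summed ILC2 tags after Notch2, with 398.3 and 440.6 against 876.3 and 1014 tags (1.65-fold, adjusted p = 0.032, limma).

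Regions higher in Th2 cells were fewer and their gaps smaller. In Sik3, a salt-inducible kinase, the region at chr9:46072597-46078111 had 236.9 and 245.1 tags in Th2 cells, against 42.5 and 87.6 in ILC2s, a 5.40-fold difference (log2 difference -2.43, SE 0.34, adjusted p = 0.0182, limma) that was -0.31 per kilobase (adjusted p = 0.055). The 2 further Sik3 regions, at chr9:46091398 and chr9:46109824, were not called, with 47.4 and 59.8 against 52.1 and 88.9 tags and 62.3 and 87.6 against 90.6 and 144.5. Arhgef3, which activates RhoA, had 208.8 and 216.5 against 132.7 and 111.7 tags (2.39-fold, adjusted p = 0.0134, limma), and Smco4 226.9 and 203.9 against 134.3 and 111.3 (2.40-fold, adjusted p = 0.0159, limma). Per kilobase Arhgef3 was not called (log2 difference -0.05, adjusted p = 0.804) and Smco4 took the opposite sign (0.11, adjusted p = 0.506). A region in 2700097O09Rik had 129.7 and 185.3 against 68.1 and 75.8 tags (2.95-fold, adjusted p = 0.0146, limma) and was also called per kilobase. Csf1, a growth factor of macrophages, had a region 48560 bp away with 119.7 and 120.5 against 91.8 and 76.2 tags (1.96-fold, adjusted p = 0.0245, limma), and Arhgap15, which acts on Rac, had one of 67.3 and 64 against 48.5 and 54.3 (1.75-fold, adjusted p = 0.0228, limma). Both of these were lost per kilobase (adjusted p = 0.129 and 0.144), and Arhgap15 also without centring (adjusted p = 0.0855).

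Itpr1, the IP3 receptor that releases calcium, had 3 regions, of which 1 was called. The one at chr6:108452779-108455987 had 42.4 and 39.6 tags in Th2 cells, against 158.3 and 166.9 in ILC2s (log2 difference 1.54, SE 0.12, adjusted p = 0.00709, limma). The one at chr6:108430435-108432943 had 112.8 and 109.5 tags in Th2 cells, against 40.5 and 92.4 in ILC2s, with both Th2 libraries higher and no call (adjusted p = 0.0921, limma). The third had 56.1 and 61.5 against 81 and 97.2.

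**Figure D4:**
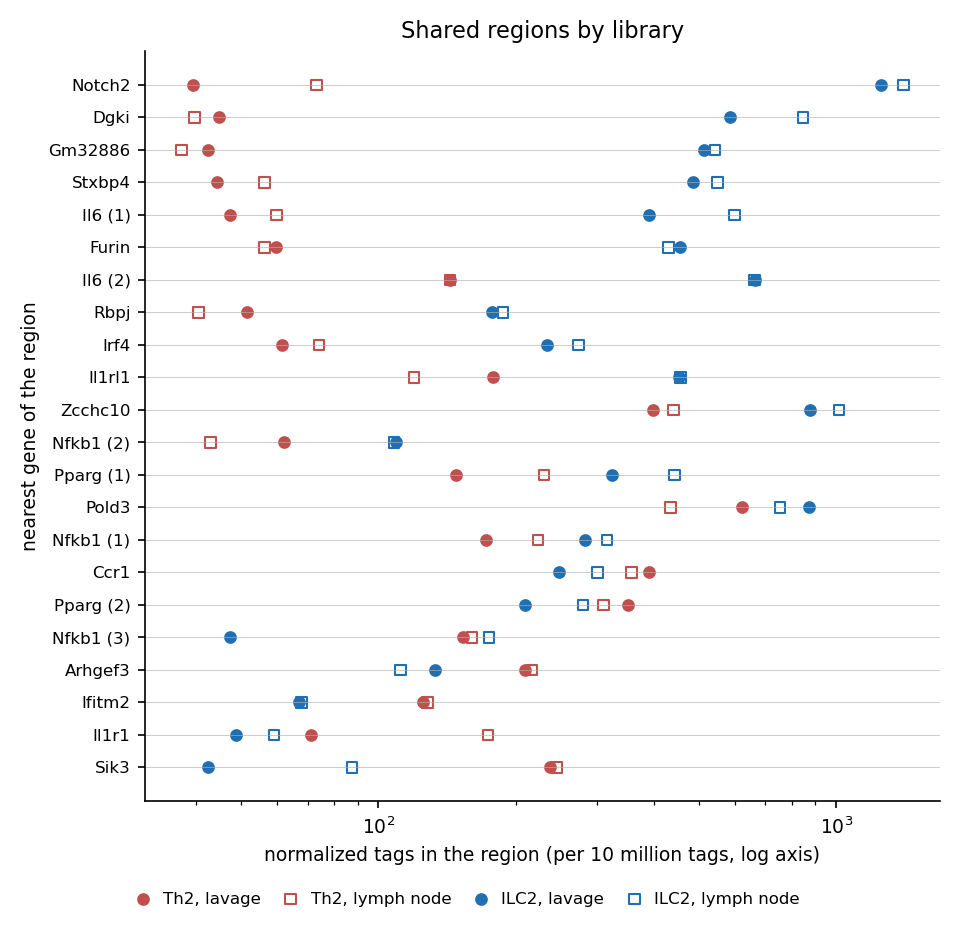
Normalized tags (log axis) of 22 shared regions in the 4 effector libraries (filled circles for lavage, open squares for lymph node, red for Th2 cells, blue for ILC2s), ordered by log2 difference, with numbers for genes of several regions in order of position. Both Th2 points are left of both ILC2 points from Notch2, at 39.3 and 73.3 tags, down to Nfkb1 (1), while Ccr1, Pparg (2), Arhgef3, Ifitm2, Il1r1 and Sik3 have both Th2 points on the right.

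Of the 9 regions with a start site, 4 were higher in ILC2s (at Il6, Nmur1, Gm42149 and 1110002O04Rik) and 2 in Th2 cells (at Ccr1 and Ifitm2), and 3 were not called. Over all tested regions 7.93% were higher in ILC2s and 6.42% in Th2 cells, and 9 regions are too few to set a share against these. Nmur1 encodes the receptor of the neuropeptide neuromedin U, known for activating ILC2s. Its promoter region (chr1:86385518-86390040) had 38.6 and 76.7 tags in Th2 cells, against 285.4 and 364.9 in ILC2s (4.34-fold, log2 difference 2.12, SE 0.35, adjusted p = 0.0254, limma), and it stayed called per kilobase (0.58, adjusted p = 0.00954). Ccr1, a chemokine receptor, had 389 and 357.2 tags in Th2 cells, against 247.7 and 300.5 in ILC2s at chr9:123962297-123970135 (1.87-fold, log2 difference -0.90, SE 0.14, adjusted p = 0.0245, limma). That call was lost per kilobase (-0.11, adjusted p = 0.504) and without centring (adjusted p = 0.0711). Ifitm2, an interferon-induced membrane protein, had 125.3 and 128 tags in Th2 cells, against 66.9 and 67.9 in ILC2s at chr7:140953575-140956394 (2.57-fold, log2 difference -1.36, SE 0.11, adjusted p = 0.00745, limma), also per kilobase (-0.39, adjusted p = 0.0206). St6gal1, a sialyltransferase, had 39.9 and 166.8 against 112.2 and 155.9 tags, so its groups overlapped (adjusted p = 0.822, limma). Utrn, which encodes utrophin, had 64.8 and 91.8 against 113.4 and 134.9 (adjusted p = 0.47, limma). The start site of Gm42149 lay in a region within Evi5 with 133.4 and 151.6 against 513.9 and 538.3 tags (2.71-fold, adjusted p = 0.00799, limma), a call that was lost per kilobase (adjusted p = 0.113). That of 1110002O04Rik had 41.1 and 39.6 against 103.8 and 126.1 tags (2.07-fold, adjusted p = 0.0159, limma).

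At the other end, the smallest differences were at regions of Bivm, Gfra2, Selenok and Tox and at 1 region without a gene, with log2 differences within 0.02 of 0. Tox, a factor of lymphoid development, had a region 39928 bp away with 76.1 and 80 tags in Th2 cells, against 102.6 and 111.7 in ILC2s, which after centring came to a log2 difference of 0.01 (SE 0.12). Pold3, a subunit of DNA polymerase delta, had the tallest shared region in Th2 cells of the lavage, with 620.9 and 434.7 tags in Th2 cells, against 872.7 and 752.5 in ILC2s (log2 difference 0.19, SE 0.23, adjusted p = 0.595, limma). Its peaks covered 8547 to 8767 bp in all 4 libraries.

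Spleen CD4+ cells had a called peak at 1 of the 233 regions (0.429%, 95% interval 0.0109% to 2.37%), against 69.5% of all merged regions. That region was in Gna14, a G protein subunit, with 41.5 tags in spleen, 69.8 and 72.4 in Th2 cells and 157.5 and 188.3 in ILC2s. Thymus CD4+ cells had a peak at 16 regions (6.87%, 3.98% to 10.9%), against 63.7% of all. Regions of ILC2s alone had spleen peaks at 1.60% and thymus peaks at 7.13%, and those of Th2 cells alone at 0% (0 of 49, 95% interval up to 7.25%) and 2.04%. All of these sets were chosen to have no naive T peak. The shares changed with the naive T lists used: without that of the lymph node 22.0% of 345 regions had a spleen peak and 20.3% a thymus peak, while without that of the lavage 8.06% of 757 had a spleen and 8.32% a thymus peak. With 1 library per tissue there was no test, and the spleen list was called against another IgG library than all the other lists.

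The thymus peaks had 39.4 to 848.4 tags with a median of 130.8. Dhrs3, an enzyme of retinoid metabolism, had 848.4 tags in thymus CD4+ cells, above 53.6 and 37.1 in Th2 cells and 63.3 and 77.1 in ILC2s. Cep85, a centrosomal protein, had 303.1 in thymus, 39.3 and 44.6 in Th2 cells and 100.2 and 106.9 in ILC2s. Tmem123 had 184.4 in thymus, 63.6 and 58.1 in Th2 cells and 181.6 and 187 in ILC2s, and AI467606 had 182.8, 157.1 and 83.4, and 190.4 and 142.8. Jdp2, an AP-1 repressor and a neighbour of Batf, had 172.3 in thymus, 87.9 and 64.9 in Th2 cells and 160.8 and 53 in ILC2s. In 5 of the 16 regions thymus CD4+ cells were above every effector library. Of the 16 regions 5 were called higher in ILC2s and 1 in Th2 cells, against 61 and 15 of all 233.

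**Figure D5:**
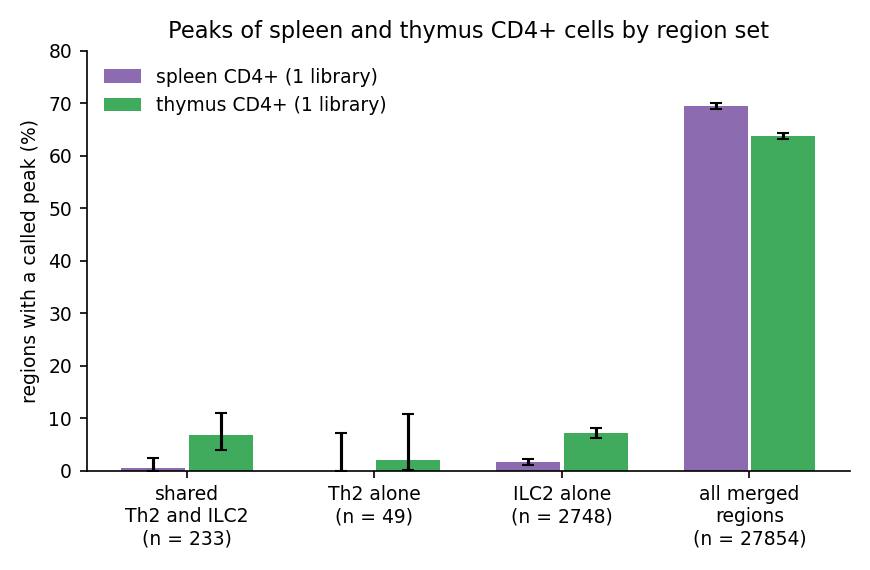
Share of regions (percent) with a called peak in spleen CD4+ cells and in thymus CD4+ cells, 1 library each, for shared regions, regions of Th2 cells alone, regions of ILC2s alone and all merged regions, with 95% Clopper-Pearson intervals over regions as bars. The shared regions stand at 0.429% and 6.87%, close to those of ILC2s alone at 1.60% and 7.13%, and all merged regions at 69.5% and 63.7%.

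Between lavage and lymph node 0 of the 233 regions passed the test in a limma model with the cell type. Of all tested regions 0% passed. The smallest adjusted p was 0.638 over the shared regions and 0.616 over all tested ones (limma). Site and replicate number are the same factor and few degrees of freedom remained, so 0 calls do not show a lack of difference. At an unadjusted p of 0.05 there were 48 regions (20.6%), against 7.69% of tested regions. Tprg, 60958 bp from its region, had the smallest p, with 77.9 lavage tags and 41.3 lymph node tags in Th2 cells and 122.7 and 61.8 in ILC2s. Fnip2, a partner of folliculin, had 97.2 and 59 in Th2 cells and 132.7 and 74.5 in ILC2s, and Riok2, an atypical kinase of ribosome assembly, 129 and 38.8, and 167.2 and 89.8. Rnf41, a ubiquitin ligase, went the other way, with 65.5 and 104.5, and 141.1 and 253.6, as did the Epas1 region at chr17:86870952. These regions had the smallest p in a model that asks for a shift common to both cell types, so that their direction is the same in both follows from the choice.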

How the data were processed

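Peak lists of H3K4me2 from 8 of the series' 10 samples were used. Bowtie, HOMER and the mm10 build are named in the submitters' processing notes, with versions not given. Per the file headers, the authors called peaks per library with HOMER findPeaks (size 1000 bp, minimum distance 2500 bp, false discovery rate 0.001, 4-fold over IgG). The IgG of the thymus was the background for all lists but that of spleen. The 2 IgG samples carry the H3K4me2 antibody in their labels, and what the excess over IgG means is therefore unsure. The deposited signal is the tag count of a peak per 10000000 tags. The deposited score of findPeaks served to rank peaks in an alternative. The deposited ratio over IgG was at least 4.13 at the shared regions, with medians of 11.5 and 11.3 in Th2 cells and 14.5 and 14.9 in ILC2s.

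Tags of peaks in a merged region were summed, taken as log2 without a pseudocount and centred per library. They were fitted with limma 3.58.1 in R 4.3.3 (2 residual and 2.75 prior degrees of freedom). The code was run on simulated heights with normal noise of the same spread in both cell types, a check of the code alone. Genes and start sites came from RefSeq tables of GRCm38.p6, and a region's gene is the nearest protein-coding one within 100 kb. The tables are not complete, and start sites were not used on every chromosome. Named regions were drawn from the 10 tallest, up to 8 in each direction by p, the 5 with the smallest difference, all nearest to listed genes, the 10 genes with most regions, the 5 highest in spleen and in thymus, the 5 longest and the 5 with the smallest p for site. Not all of these are described above, and those at Samsn1, Fars2, Uap1 and Dtnb are among the ones left out. The regions at start sites, at Gata3 and upstream of Il6, Rad50 and Mir146b were chosen after their values were seen. Some marker genes are not reported here. The rule and the gene lists were chosen with earlier results of these data known.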

Additional observations from a re-analysis of the deposited data

How the results depend on the processing

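The number of shared regions, 233, was 364 with equal numbers of peaks ranked by score, 114 when peaks had to cover 50% of the region, and 241 to 757 when a library was left out, the highest without the lavage naive T list. The spleen share, 0.429%, was 21.2% and 52.7% with equal numbers of peaks by tags and by score, 7.45% with peaks of at least 60 tags, and 0.389% to 22.0% without a library. The thymus share, 6.87%, was 19.4% and 52.7% with equal numbers, and 6.55% to 20.3% without a library. Regions higher in ILC2s, 61 of 233 (against 994 of 12527 tested regions), were 118 of 278 with equal numbers by tags. With peaks of at least 60 tags they were 38 of 161, and with 50% cover 15 of 114. They were 38 of 233 per kilobase (against 487 of 12527 tested regions) and 117 of 233 without centring (against 4665 of 12527). Without the lavage naive T list they were 144 of 757, and without that of the lymph node 93 of 345. Those higher in Th2 cells, 15, were 5 with equal numbers by tags, 6 without centring, and 0 to 75 without a library. The median log2 difference, 0.37, was 0.78 with equal numbers by tags, 0.089 by score, 0.22 with 60 tags, 0.14 with 50% cover, 0.017 per kilobase, 0.82 without centring, 0.26 with quantile normalization, 0.77 at a mean of at least 100 tags, 0.31 with a pseudocount of 10, and 0.15 to 0.42 without a library. The site gave 1 call per kilobase. Listed regions were 9 within 10 kb. Per kilobase, 3 of 34 named calls changed sign, Il1rl1 (-0.10), Rbpj (-0.13) and Smco4 (0.11), and 15 were lost. With a replicate block, which is the site, 71 and 18 regions were called, against 1105 and 851 of the 12527 tested regions. Of the 71 and 18, 61 and 13 were also called without the block. The Pparg region at chr6:115437066 was lost with it (adjusted p = 0.0514, limma). Deviations of same-numbered libraries correlated at 0.25 over 12527 regions. With only 2 such pairs the number is not shown to pair the libraries. The cause of these changes was not tested. At the threshold stood 64 and 47 tags in Th2 cells and 100 and 91 in ILC2s.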
